A study of Mus musculus with 18 samples.

Results

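The interleukin 6 axis and the PIM kinases were followed through 10 genes chosen by name. They are the cytokine gene Il6, its receptor genes Il6ra and Il6st, the transcription factor gene Stat3, the feedback inhibitor genes Socs1, Socs3 and Cish, and the kinase genes Pim1, Pim2 and Pim3. All 10 were listed among 22017 genes of an in vitro set, and 8 among 13195 genes of a bone marrow set. For bone marrow, Il6 and Cish were not analysed here.

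RNA was sequenced in bulk from mouse cells that were wild type (WT), lacked 1 copy (HET, heterozygous) or both copies (KO, homozygous) of Fabp4, the gene of a lipid carrier protein of fat cells and macrophages. The series title sets leukemia stem cells against normal blood stem cells. The in vitro set (sorted from what the labels call vitro bone marrow) had 3 libraries per genotype. The bone marrow set (sorted from bone marrow) had 3 WT, 2 HET and 3 KO libraries, because HET replicate 2 was not used here. The labels give neither the sorted population, the culture, any leukemic driver, nor the age and strain of the mice, and they do not say whether every library came from a separate mouse. The p-values may therefore measure only the spread between libraries, which may be technical.

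Interleukin 6 binds its receptor subunit, encoded by Il6ra, and the complex then engages the shared signal transducer gp130, encoded by Il6st. Janus kinases bound to that transducer phosphorylate STAT3, which enters the nucleus and induces target genes. SOCS3 is among the targets and shuts off gp130 signalling, while SOCS1 and CIS, the product of Cish, restrain mainly interferon and STAT5 signalling. The PIM kinases are serine and threonine kinases induced by cytokines through STAT factors, need no phosphorylation by another kinase to be active, and promote the survival and growth of blood cells. In leukemia biology FABP4 has been linked to this axis and to DNA methylation.

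STAT dimers bind the palindrome TTCNNNGAA, which reads alike on both strands. RefSeq windows (GRCm38.p6) from 250 bases before to 50 after an annotated start were found for all 10 genes, and 2 of the 10 held the palindrome, Socs3 and Cish. Of all genes with a window, 9.55% held it, and 0.457% of all windows held it at least 2 times. The 250 bases before the window starts of Socs3 and Pim2 are shown because these genes moved in opposite directions. For Cish a 20-base stretch is shown that opens at the annotated start and holds 2 copies. Capitals mark the palindrome, and sequences run 5′ to 3′ on the strand of the gene.
Socs3 (chr11:117969367-117969616, minus strand): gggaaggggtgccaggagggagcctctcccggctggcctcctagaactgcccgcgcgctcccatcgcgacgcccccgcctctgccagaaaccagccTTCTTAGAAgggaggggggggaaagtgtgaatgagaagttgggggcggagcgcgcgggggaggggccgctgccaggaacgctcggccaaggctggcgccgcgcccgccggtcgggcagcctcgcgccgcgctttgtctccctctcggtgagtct
Pim2 (chrX:7878056-7878305, plus strand): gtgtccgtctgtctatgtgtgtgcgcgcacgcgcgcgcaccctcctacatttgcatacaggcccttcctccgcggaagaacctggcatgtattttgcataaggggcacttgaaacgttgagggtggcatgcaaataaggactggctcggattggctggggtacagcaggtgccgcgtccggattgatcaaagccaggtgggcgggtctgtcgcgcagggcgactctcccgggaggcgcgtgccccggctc
Cish (chr9:107296659-107296678, plus strand): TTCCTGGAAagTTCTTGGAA
The Socs3 copy opens 154 bases before the start used for its window. That start and the bases shown lie inside the listed span of Socs3 (chr11:117966079-117970336), not before its outer end. The windows of the other 8 genes held no copy, which says nothing of binding elsewhere.

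The unit was FPKM, fragments scaled by transcript length and library size, so levels could be set side by side between genes of a table. Levels were not compared between the 2 tables, which may have been scaled separately. Tests were run by limma on log2(FPKM + 1) over all genes that reached 1 FPKM in 3 or more libraries (10877 in vitro, 7246 in bone marrow), with Benjamini-Hochberg adjustment and a threshold of 0.05. Depth estimated from the step size of low values was 30.6 to 36.9 M (mega) fragments per in vitro library and 3.96 to 36.4 M per bone marrow library. Fabp4, the targeted gene, was at 0 to 0.330 FPKM in the in vitro WT libraries and was listed at 0 in all in vitro KO libraries, too low to check the labels. It was not listed in the bone marrow set.

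In vitro the kinase gene Pim1 was by far the most abundant of the 10, at 285 ± 28.2 FPKM (SD over 9 libraries), above 99.0% of listed genes. Stat3 followed at 41.0 ± 3.92 FPKM, below Pim1 and above Socs3 in 9 of 9 libraries, although Il6 lay above Stat3 in WT replicate 3. Socs3 (28.0 ± 9.96), Il6 (24.2 ± 8.52), Pim2 (18.9 ± 6.61), Pim3 (18.7 ± 2.96) and Cish (17.3 ± 4.80) followed, and each lay within 1 SD of its neighbour in this order. Socs1 was lower, at 8.28 ± 2.05 FPKM, below Cish in 9 of 9 libraries. The receptor genes were lowest, with Il6st at 1.33 ± 0.731 and Il6ra at 1.21 ± 0.729 FPKM, and their order changed between libraries. The transcripts of the cytokine and its inhibitors were thus measured far above those of the receptor subunits.

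**Figure D1:**
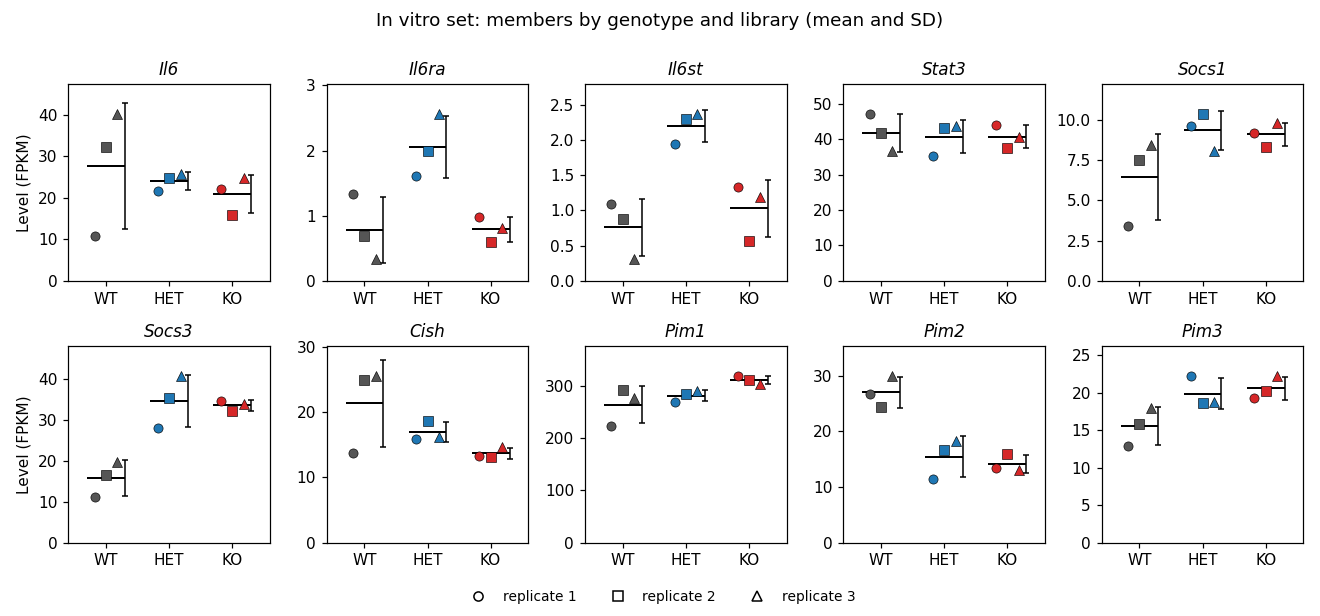
Level in FPKM (linear axes from 0) of the 10 genes in each in vitro library, by genotype; symbols give the replicate number, horizontal bars the mean and whiskers the SD (n = 3). Socs3 is higher and Pim2 lower in all HET and KO libraries than in all WT libraries, and Il6ra and Il6st are highest in the HET libraries.

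In HET cells in vitro, transcripts of both receptor subunits and of Socs3 were higher than in WT cells and those of Pim2 were lower. In KO cells Socs3 was again higher and Pim2 again lower than in WT, while the receptor genes differed by less than the spread. By limma 3 of the 10 genes rose and 1 fell in HET against WT, where 3.68% of all tested genes were called (2.94% higher and 0.735% lower). In KO against WT 1 rose and 1 fell, where 2.99% were called (1.36% higher and 1.63% lower). In KO against HET limma called 0 of 10, against 1.99% of all genes. At an unadjusted p under 0.05 there were 2 of 10 in KO against HET and 6 of 10 in each comparison with WT, where 13.2% of all genes were in KO against HET, 23.4% in HET against WT and 19.4% in KO against WT. Both comparisons with WT use the same WT libraries. The groups did not overlap for 5 of the 10 genes in HET against WT, where 29.1% of all tested genes did not overlap, and for 4 in KO against WT, where 22.9% did not. In KO against HET they did not overlap for 4, where 22.4% did not.

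**Figure D2:**
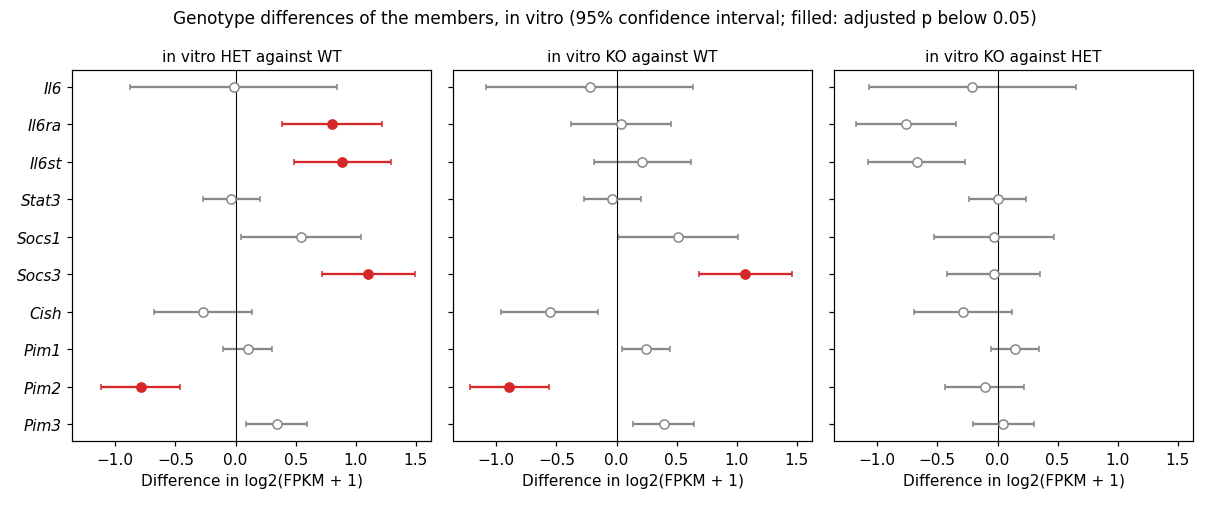
Difference in log2(FPKM + 1) between genotypes for the 10 genes in vitro, with 95% confidence intervals from limma; filled points are past an adjusted p of 0.05. The filled points are Il6ra, Il6st, Socs3 and Pim2 in HET against WT and Socs3 and Pim2 in KO against WT, and none in KO against HET.

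The ligand gene Il6 was measured at 10.7, 32.1 and 40.1 FPKM in WT replicates 1 to 3, at 21.5, 24.6 and 25.7 in HET and at 22.0, 15.9 and 24.7 in KO. The HET and KO libraries lay inside the WT range, which WT replicate 1 set at its lower end. The KO minus WT difference was -0.22 on the log2 scale (95% confidence interval -1.09 to 0.64, limma adjusted p = 0.798) and the HET minus WT difference -0.02 (-0.88 to 0.85, adjusted p = 0.984). Without WT replicate 1 the KO minus WT difference was -0.78 (adjusted p = 0.0318). WT replicate 1 also had the lowest summed level of 6 mast cell and basophil genes (1252 FPKM, against 1574 to 3281 in the other 8 libraries), and the part of these cells in the Il6 values was not tested. In bulk RNA, fewer cells of a type and less RNA per cell cannot be told apart.

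Il6ra, the gene of the ligand-binding subunit, was at 1.33, 0.693 and 0.329 FPKM in WT, at 1.61, 2.0 and 2.56 in HET and at 0.979, 0.591 and 0.810 in KO. All 3 HET libraries lay above all WT and KO libraries. Il6ra rose in HET against WT by 0.80 ± 0.19 on the log2 scale (SE, adjusted p = 0.0411). The KO minus WT difference was 0.04 (-0.37 to 0.45, adjusted p = 0.932) and the KO minus HET difference was -0.76 (adjusted p = 0.0677). Exons of Il6ra overlap those of the antisense gene Gm42809 on the opposite strand, and the strand setting of the counting is not given.

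Il6st, the gene of the shared transducer, was at 1.09, 0.872 and 0.311 FPKM in WT, at 1.94, 2.30 and 2.37 in HET and at 1.33, 0.572 and 1.20 in KO. As with Il6ra, the HET libraries stood above both other genotypes without overlap. Il6st rose in HET against WT by 0.89 ± 0.19 (adjusted p = 0.0246), with a KO minus WT difference of 0.22 (-0.19 to 0.62, adjusted p = 0.562) and a KO minus HET difference of -0.67 (adjusted p = 0.102). At these low levels the added 1 FPKM compresses the differences, and the mean FPKM in HET was 2.62 times that in WT for Il6ra and 2.90 times for Il6st. The Il6ra call ended without any of WT replicates 2 and 3, HET replicates 1 to 3 and KO replicates 1 and 3 (adjusted p up to 0.153), with a pseudocount of 0.1 (0.0587), with no filter on low values (0.10), with the replicate block (0.0700) and with only the 2 groups fitted (0.0670), which makes 11 of 16 alternatives. The Il6st call ended without WT replicates 2 or 3 or any HET replicate (up to 0.107) and with no filter (0.0706).

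Markers of macrophages and neutrophils were measured beside these genes. The summed level of the 12 listed of 13 macrophage markers was 112 to 122 FPKM in WT, 177 to 211 in HET and 161 to 169 in KO, and 5 of the 8 tested markers rose in HET and 2 in KO against WT. That of 12 neutrophil markers was 3804 to 5112 FPKM in WT, 5334 to 7694 in HET and 3662 to 6557 in KO. Of these 12, 4 rose in HET and 0 in KO against WT. Of all tested genes 2.94% rose in HET and 1.36% in KO. Macrophage sums did not overlap between WT and either HET or KO, and the neutrophil sums of KO overlapped those of WT. Mpo and Elane had the highest WT means of the neutrophil list and were not higher in HET. Mean Mpo was 1678 FPKM in WT, 1668 in HET and 1495 in KO, and mean Elane was 1536, 1435 and 1275. Means of the other neutrophil markers were higher in HET than in WT, among them S100a8 (425 and 1124 FPKM). The macrophage markers differed among themselves in KO. Means of Itgam (44.5 FPKM in WT and 62.0 in KO), Ccr2 (12.3 and 26.1), Cd68, Cd14 and Adgre1 were higher. Those of Csf1r (2.43 and 2.68), Ctss (4.93 and 4.34), Trem2 (0.763 and 0.852) and Fcgr1 (0.442 and 0.472) lay within 1 SD of WT. The part of these cells in the rise of Il6ra and Il6st was not tested.

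Stat3, the factor gene of the axis, was measured at 47.1, 41.7 and 36.5 FPKM in WT, 35.3, 43.2 and 43.7 in HET and 43.9, 37.4 and 40.6 in KO. The 3 genotypes overlapped. The KO minus WT and HET minus WT differences were both -0.03 on the log2 scale (both -0.27 to 0.21, adjusted p = 0.897 and 0.881), so a change of the transcript by more than these bounds was not seen at this precision. Stat3 shares exon sequence with its neighbour Stat5a on the opposite strand, and the strand setting of the authors' counting is not given in the sources used here.

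Socs3, the inhibitor of gp130 signalling whose window held the palindrome shown above, was at 11.1, 16.6 and 19.8 FPKM in WT. It was at 28.0, 35.3 and 40.7 FPKM in HET and at 34.5, 32.1 and 34.0 in KO. Every HET and KO library lay above every WT library, and the KO libraries stood closest together. Socs3 rose by 1.10 ± 0.18 on the log2 scale in HET against WT (adjusted p = 0.00654) and by 1.07 ± 0.18 in KO against WT (adjusted p = 0.0105). HET and KO did not differ beyond the spread (KO minus HET -0.03, -0.42 to 0.35, adjusted p = 0.973). The HET call remained under all 17 alternatives, with adjusted p up to 0.0438, and the KO call ended without KO replicate 1 or KO replicate 3 (adjusted p = 0.0571 and 0.0549). The summed macrophage markers were higher in every HET and KO library (161 to 211 FPKM) than in every WT library (112 to 122). In KO this did not hold for each marker, as given above, and their part in the rise of Socs3 was not tested.

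Socs1 was at 3.40, 7.49 and 8.40 FPKM in WT, at 9.62, 10.3 and 8.03 in HET and at 9.16, 8.30 and 9.78 in KO. WT replicate 1 was the low library, and the groups overlapped. The differences from WT were 0.54 in HET (0.04 to 1.04, adjusted p = 0.181) and 0.51 in KO (0.01 to 1.01, adjusted p = 0.246), neither past the threshold.

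Cish, a STAT5-induced gene with 2 palindromes at its start, was at 13.7, 24.9 and 25.6 FPKM in WT, at 15.9, 18.7 and 16.2 in HET and at 13.3, 13.1 and 14.6 in KO. The KO libraries lay below the HET libraries without overlap, and WT replicate 1 lay among them. The KO minus WT difference of -0.56 was not past the threshold (-0.96 to -0.15, adjusted p = 0.128), nor was the HET minus WT difference of -0.27 (adjusted p = 0.402). Without WT replicate 1 Cish was called lower in both KO (-0.84, adjusted p = 0.0022) and HET (-0.55, adjusted p = 0.0103). Exons of Cish overlap those of 2 genes on the opposite strand in GENCODE M21.

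Among the kinases, Pim2 was at 26.7, 24.4 and 30.0 FPKM in WT, at 11.4, 16.7 and 18.3 in HET and at 13.4, 15.9 and 13.0 in KO. Every HET and KO library lay below every WT library. Pim2 fell by 0.79 ± 0.15 on the log2 scale in HET (adjusted p = 0.0162) and by 0.89 ± 0.15 in KO (adjusted p = 0.0108), to 0.572 and 0.521 of the WT mean FPKM. The KO call ended without KO replicate 1 or 3 (adjusted p = 0.0571 and 0.0626). The HET call ended without WT replicate 3 or HET replicate 2 (0.0582 and 0.0501) and with no filter on low values (0.0578).

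Pim2 lies on chromosome X, and the libraries differed in transcripts of sex-linked genes. Xist, the X inactivation RNA gene, was at 31.4 to 49.6 FPKM in WT, 12.3 to 18.2 in HET and 25.2 to 43.2 in KO, and the Y gene Eif2s3y was at 4.06 to 4.61, 9.40 to 10.4 and 5.83 to 6.17. Of 315 tested X genes the median log2 difference was -0.02 in HET and -0.01 in KO against WT, and 3 of them had a lower value than Pim2 in each comparison. The part of donor sex in the fall of Pim2 was not tested.

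Pim1 was at 223, 291 and 276 FPKM in WT, at 269, 284 and 290 in HET and at 319, 312 and 303 in KO. The KO libraries lay above all others, and the difference from WT of 0.25 was not past the threshold (0.04 to 0.45, adjusted p = 0.168). Exons of Pim1 overlap those of the antisense gene Gm26885 on the opposite strand. Pim3 was at 12.9, 15.9 and 17.9 FPKM in WT, at 22.3, 18.6 and 18.8 in HET and at 19.3, 20.3 and 22.2 in KO. The HET and KO libraries of Pim3 lay above the WT libraries without overlap. Its differences from WT of 0.34 in HET (adjusted p = 0.113) and 0.39 in KO (adjusted p = 0.0957) were not past the threshold, and the KO difference was called without WT replicate 3 (0.49, adjusted p = 0.0465). Of the 3 kinase genes only Pim2 was called against WT, and it was lower. The mean levels of Pim1 and Pim3 were above those of WT without passing the threshold, and the kinase genes were not tested against each other.

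The rest of the pathway was read from 10 lists, which were chosen with earlier results of these data known. Their counts are therefore described and are no test of a list. Beside their counts, 2.94% of all tested genes rose and 0.735% fell in HET against WT. In KO against WT 1.36% rose and 1.63% fell. Of 5 tested ligand genes of the family none passed the threshold in HET or KO against WT. Oncostatin M (Osm), a relative of interleukin 6 that also signals through gp130, was the most abundant of them, at 141 ± 65.6 FPKM in WT, 102 ± 4.30 in HET and 118 ± 10.9 in KO. Of 8 tested receptors of the family or coupled to STAT3, 3 rose in HET against WT and 0 in KO against WT, with medians of 0.19 and 0.20 where the medians of all genes were both 0.04. The third was Csf3r, the receptor gene for granulocyte colony-stimulating factor (15.9 ± 1.24 FPKM in WT, 24.2 ± 3.63 in HET and 21.3 ± 0.970 in KO, adjusted p = 0.0152 in HET). Csf3r is also in the list of neutrophil markers.

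Of 7 tested receptors coupled to JAK2 and STAT5, 2 rose in HET and 0 in KO against WT. They were Csf2ra (4.83 ± 0.366 and 7.82 ± 0.240 FPKM in WT and HET, adjusted p = 0.00912) and Csf2rb (106 ± 7.59 and 157 ± 16.9 FPKM, adjusted p = 0.0411), the subunits of the receptor for granulocyte-macrophage colony-stimulating factor. Csf2rb has a near copy, Csf2rb2, between which the counting could split reads. Of the 4 Janus kinase genes 2 rose in HET and 0 in KO. Tyk2 went from 15.3 ± 1.80 to 20.7 ± 0.464 FPKM (adjusted p = 0.0353) and Jak3 from 21.3 ± 2.81 to 28.9 ± 2.85 (adjusted p = 0.0495).

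Of the 7 STAT genes 0 were called in HET or KO against WT, with a median difference of -0.03 in both. Of the 8 genes of the SOCS family only Socs3 was called in either comparison, and the others lay between -0.56 and 0.54. Of 11 other brakes on the pathway 1 rose in HET and 0 in KO. It was Ptpn1, a phosphatase gene whose product acts on Janus kinases (9.79 ± 0.603 and 14.7 ± 0.748 FPKM, adjusted p = 0.0139).

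Of 21 tested genes that STAT3 is known to induce, 7 rose and 0 fell in HET against WT (median 0.35) and 3 rose and 0 fell in KO against WT (median 0.22). Over all tested genes 2.94% rose in HET and 1.36% in KO, and both medians were 0.04. The list of STAT3-induced genes holds the members Socs3, Il6st, Stat3 and Pim1, and Socs3 and Il6st are among the 7 that rose in HET. Because the list was chosen with earlier results known, its counts beside these shares are no test of enrichment. In HET the called genes of the list included the AP-1 gene Fos (83.5 ± 11.1 and 269 ± 38.1 FPKM, adjusted p = 2.44e-05), the acute-phase gene Saa3 (31.7 ± 9.49 and 142 ± 14.1, adjusted p = 0.00963) and the factor gene Cebpd (8.16 ± 1.88 and 16.2 ± 1.60, adjusted p = 0.00988). In KO they were Fos (390 ± 38.1 FPKM, adjusted p = 1.83e-06), Junb (from 105 ± 21.2 to 187 ± 14.6 FPKM, adjusted p = 0.00634) and Socs3. Fos and Junb are immediate early genes. Saa3 differed between the knockout genotypes, being lower in KO at 20.1 ± 9.84 FPKM (KO against HET adjusted p = 0.00181).

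Of 13 tested STAT5-induced genes 1 rose in HET and 0 in KO. It was Lcn2, a neutrophil granule gene that is also in the list of neutrophil markers (81.9 ± 16.1 and 133 ± 18.5 FPKM, adjusted p = 0.0204). Of 10 genes of proteases, partners and outputs of interleukin 6 signalling 0 were called in either comparison. Among them Adam17, which sheds the receptor subunit from the cell surface, was at 52.5 ± 7.23 FPKM in WT, and KO had 67.6 ± 3.38 (adjusted p = 0.0608). The DNA methyltransferase gene Dnmt1, which STAT3 has been reported to induce in leukemia cells, was at 30.9 ± 7.53 FPKM in WT, 39.7 ± 2.99 in HET and 33.6 ± 5.55 in KO (adjusted p = 0.185 in HET).

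**Figure D3:**
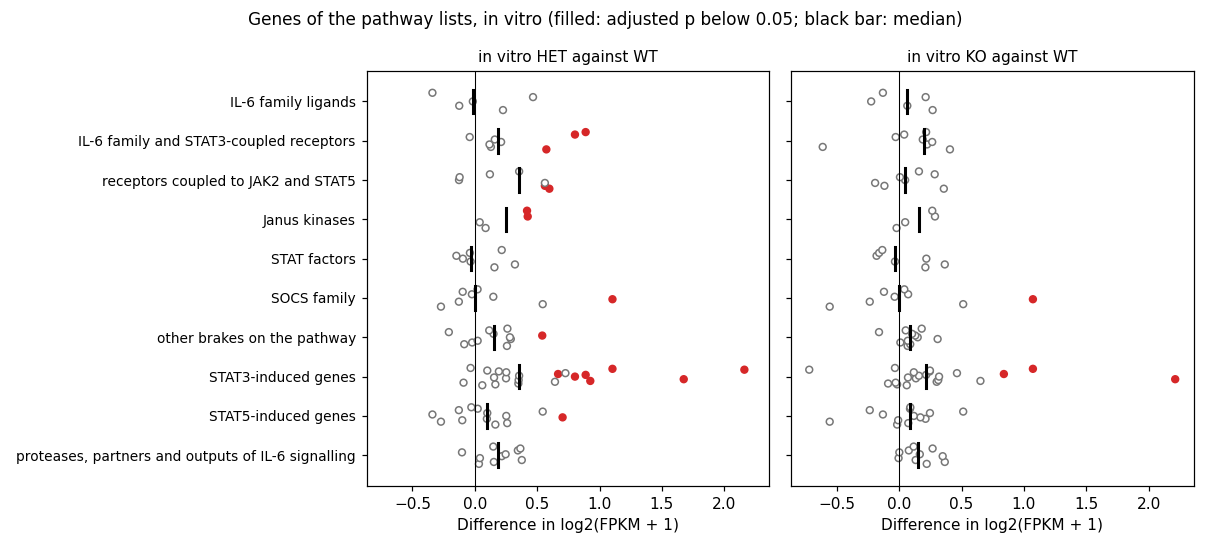
Difference in log2(FPKM + 1) from WT of every tested gene of the 10 pathway lists in vitro, in HET (left) and KO (right); filled points are past an adjusted p of 0.05 and black bars are list medians. Filled points in HET lie among receptors, Janus kinases, inhibitors and STAT3- or STAT5-induced genes; in KO they are Fos, Junb and Socs3, the last in 2 lists.

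Genes with the most similar pattern over the 9 in vitro libraries are given for Pim2, Il6ra and Il6st, by the smallest root mean square difference of log2(FPKM + 1) after centring each gene, among 9179 genes. Nearest to Pim2 (SD 0.47) were Gtf2e2, a subunit gene of a general transcription factor (0.12), Prelid2 (0.13) and Eif4ebp1, the gene of a translation repressor under mTOR control (0.13), as root mean square differences. Nearest to Il6ra (SD 0.46) were Stag3 (0.18), Tnfsf14 (0.20) and Nisch (0.20). Nearest to Il6st (SD 0.47) were Edem3 (0.17), Creb3l2 (0.18) and Zfp971 (0.18).

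**Figure D4:**
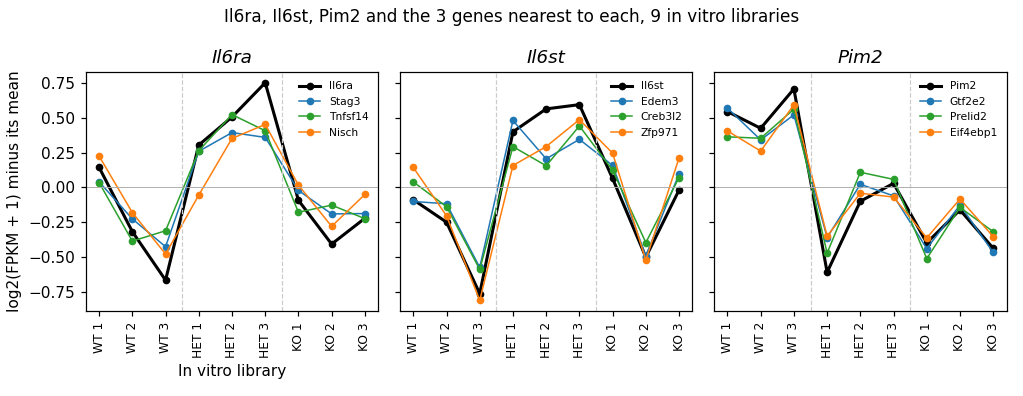
log2(FPKM + 1) minus its mean over the 9 in vitro libraries for Il6ra, Il6st and Pim2 (black) and the 3 genes nearest to it (colours); dashed lines part the genotypes and the order of libraries within a genotype has no meaning. Il6ra and Il6st peak in HET and Pim2 is highest in WT.

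In the bone marrow set 8 of the 10 genes were listed, all 8 passed the filter on low values, and limma called 0 of 8 in each comparison. At an unadjusted p under 0.05 there were 0 of 8 in KO against WT, 3 in HET against WT and 1 in KO against HET, where 5.1%, 12.4% and 11.3% of all genes were. The called share of all genes was 0% in KO against WT, 0.262% in HET against WT and 0.166% in KO against HET. HET replicate 1 listed 72.5% of all genes and 6 of the 8 at 0, HET replicate 3 listed 60.5% and 5 of the 8, and the other libraries listed 35.4 to 50.3%. An exact 0 can be a failed estimate, so these genes are said only to be listed at 0.

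Il6ra was at 3.01, 8.77 and 33.6 FPKM in WT, at 38.4 and 0 in HET and at 60.2, 53.0 and 0 in KO. Il6st was at 6.40, 6.01 and 5.63 FPKM in WT and listed at 0 in HET replicates 1 and 3, while KO had 10.4, 0 and 21.7 in KO. Both receptor genes were above 0 in every WT library, and each was listed at 0 in at least 1 HET and 1 KO library. Stat3 was at 41.1, 22.0 and 15.6 FPKM in WT, at 0 and 29.1 in HET and at 11.4, 39.9 and 10.5 in KO.

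Socs1 was at 14.7, 33.7 and 30.4 FPKM in WT and 14.8, 99.8 and 23.7 in KO, with each HET library listed at 0. Socs3 was low in most libraries, at 8.10, 0 and 1.31 FPKM in WT, 0 and 17.1 in HET and 0, 0.840 and 0.0102 in KO. The KO libraries lay within the range of the WT libraries, and 1 library of each genotype was listed at 0.

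Pim1 was at 68.0, 36.5 and 17.3 FPKM in WT, at 2.98 and 0.791 in HET and at 12.9, 35.4 and 18.0 in KO. Both HET libraries lay below all others, with a HET minus WT difference of -3.76 on the log2 scale (adjusted p = 0.289), where the median of all genes was -0.99. Pim2 was at 0, 30.8 and 10.3 FPKM in WT and 0.0300, 28.0 and 0 in KO, with each HET library listed at 0. Pim3 was at 18.3, 12.4 and 21.4 FPKM in WT and 0, 17.8 and 58.0 in KO, again with each HET library listed at 0. The groups did not overlap for 4 of the 8 genes in HET against WT, where 30.1% of all genes did not overlap, and for 0 of 8 in KO against WT, where 12.3% did not. In KO against HET they did not overlap for 2 of the 8, where 27.9% did not.

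**Figure D5:**
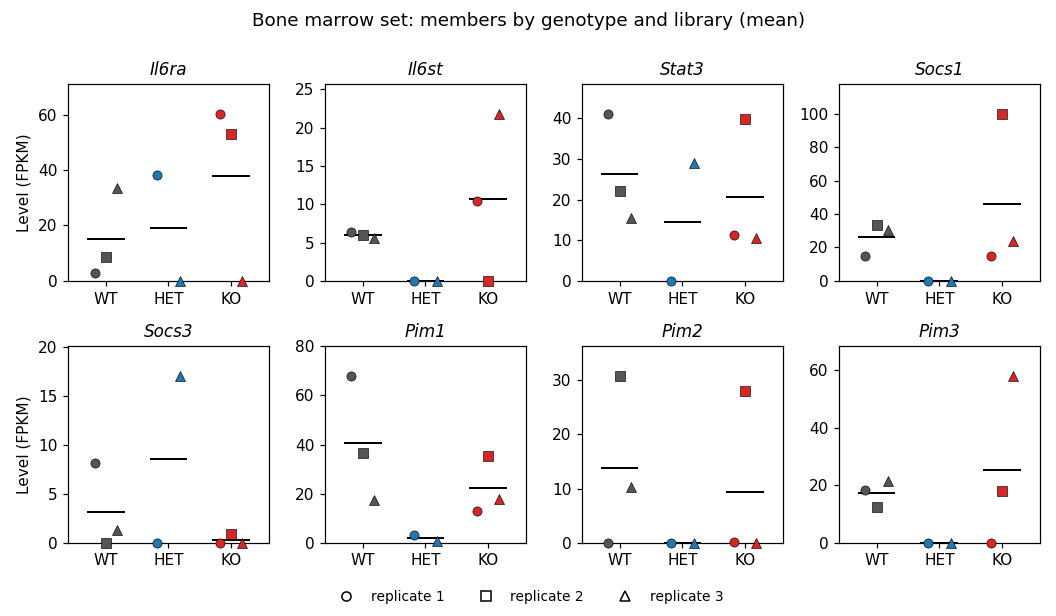
Level in FPKM (linear axes from 0) of the 8 listed genes in each bone marrow library, by genotype; symbols give the replicate number and bars the mean (3 WT, 2 HET and 3 KO libraries). Il6st, Socs1, Pim2 and Pim3 are at 0 in both HET libraries, and the KO libraries overlap the WT libraries for all 8 genes.

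For KO against WT the 8 differences in bone marrow lay between -1.20 and 0.43 on the log2 scale, with SE of 1.23 to 1.95 (adjusted p of 0.995 or more), so the size of the in vitro changes of Socs3 and Pim2 was not detectable in this set. The KO minus WT difference of Socs3 was -1.17 in bone marrow and 1.07 in vitro. The difference between the sets was 2.24 ± 1.33 (SE, joint limma fit over 6915 genes, adjusted p = 0.764), not past the threshold. That of Pim2 was 0.30 ± 1.75 (adjusted p = 0.997). In this fit 0 of the 8 genes were called in KO against WT, against 0.738% of all genes, and 2 in HET against WT (Pim1 and Socs1), against 6.25%. The joint fit takes 1 spread per gene over both sets, which may make its p-values too small. The summed level of 12 neutrophil markers in bone marrow was 4802 to 54241 FPKM in WT, while HET had 130210 and 131056 and KO had 135021 to 210796. S100a8 was its largest part, with means of 21023 FPKM in WT, 92387 in HET and 107248 in KO. Means of S100a9, Camp, Ngp, Elane and Csf3r were also higher in HET than in WT. Those of Mpo (528 FPKM in WT and 366 in HET), Lcn2 (174 and 120), Mmp8, Ltf and Retnlg were lower in HET. Of 10 tested neutrophil markers 0 were called in HET or KO against WT. The part of neutrophil transcripts in the bone marrow values was not tested.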

How the data were processed

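Bulk RNA of 17 libraries was analysed, 9 in vitro and 8 from bone marrow; HET replicate 2 of bone marrow was not used here. Per the file headers and labels, the authors deposited 1 table of FPKM per set. Reads were placed on mm10 according to the submitters' processing notes. Aligner, counter and strandedness were not given in the sources used here. FPKM keep no count, so depth was estimated from the steps of low values in single-exon genes. The depth chosen was the one that brought these values closest to whole fragments. The share within 0.1 of a whole fragment (72.7 to 87.1%) is therefore no independent check. The estimate for bone marrow HET replicate 1 rests on 27 values.

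Each table was fitted on its own with limma 3.58.1 in R 4.3.3 on log2(FPKM + 1), 1 mean per genotype, with a mean-variance trend and robust variances, over genes that reached 1 FPKM in 3 or more libraries. Fold changes on this scale understate the change of low genes. A joint fit, with 1 spread per gene over both sets, gave the differences between the sets. Fabp4 was tested by an exact permutation test. The script was tested on simulated data. Genes were named by rule: all 10 members, at most 4 of each pathway list by smallest p, and the 3 genes nearest to each called member. The nearest genes of Socs3 are not reported here. Members and lists were chosen with earlier results of these data known. Alternatives changed the pseudocount, filter, scaling, groups fitted, replicate block and libraries.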

Additional observations from a re-analysis of the deposited data

Results flagged for a closer look

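In HET against WT, Pim1 and Socs1 were called as differing between the in vitro and bone marrow sets in a joint limma fit over 6915 genes. In this fit 6.25% of genes were called and the median of all genes was 1.08. The fit takes 1 spread per gene over both sets, although the spread was far larger in bone marrow. Fitted alone, the SE of Pim1 was 0.09 in vitro and 1.39 in bone marrow, and that of Socs1 0.23 and 1.44. The joint SE below are smaller than those of bone marrow alone, so the joint p-values may be too small. For Pim1 the in vitro difference was 3.86 higher on the log2 scale than that in bone marrow (SE 0.74, adjusted p = 0.00601). For Socs1 it was 5.23 higher (SE 1.04, adjusted p = 0.00691). Both bone marrow HET libraries list Socs1 at 0, so its value depends on the pseudocount and is no bound. In bone marrow alone neither passed the threshold (adjusted p = 0.289 for Pim1 and 0.224 for Socs1). After quantile normalization neither difference was called (1.69, adjusted p = 0.412 for Pim1 and 3.91, adjusted p = 0.0765 for Socs1). The bone marrow HET group has 2 libraries, with estimated depths of 3.96 and 11.7 M fragments, and the part of depth was not tested.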

How the results depend on the processing

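No result changed direction while called. In vitro, the number of genes called in KO against WT was 152 with no filter, 172 with the replicate block and 176 with only the 2 groups fitted, against 325. In HET against WT it was 250 with no filter and 234 with the replicate block, against 400, and in KO against HET it was 136 with the filter at 5 FPKM, against 216. In bone marrow, KO against WT gave 2 genes after quantile normalization, against 0. HET against WT gave 35 with a pseudocount of 0.1, 12 after quantile normalization and 0 with the replicate block or only the 2 groups, against 19. KO against HET gave 31 with a pseudocount of 0.1, 6 with no filter, 7 after quantile normalization and 0 with the replicate block or only the 2 groups, against 12.

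Of the 10 genes, those called in HET against WT numbered 1 with no filter and 2 with the filter at 5 FPKM, which 8 passed. In KO against HET 2 were called with only the 2 groups fitted, Il6ra (adjusted p = 0.0163) and Il6st (0.0430). Leaving out each library in turn gave 66 to 475 genes and 0 to 4 of the 10 in KO against WT, 84 to 628 genes and 1 to 5 of the 10 in HET against WT, and 73 to 344 genes and 0 to 2 of the 10 in KO against HET. In bone marrow it gave 0 to 4, 0 to 323 and 0 to 330 genes, and 0 of the 8 in each. The cause was not tested.

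Replicate numbers showed no sign of pairing the libraries of different genotypes. After centring each gene on its genotype mean, same-numbered libraries correlated at -0.30 to 0.18 in vitro (3 of 9 pairs over 0.1). Differently numbered libraries correlated at -0.33 to 0.37 (8 of 18). In bone marrow the ranges were -0.02 to 0.03 (0 of 7) and -0.04 to 0.02 (0 of 14). The replicate block ended 1 call among the 10 genes, Il6ra in HET against WT (0.80, adjusted p = 0.0700). Estimated depth in bone marrow was lowest in HET replicate 1, at 3.96 M fragments, and the part of depth in the values was not tested.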
